A study of Mus musculus with 9 samples.

Results

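The transcription factors that set effector and memory fate in CD8+ T cells were followed, by 10 of their genes, in high and low avidity T cells specific for the tumor antigen GSW11: Tbx21, Eomes, Prdm1, Id2, Zeb2, Runx1, Runx3, Batf, Bcl6 and Ikzf1. They were listed by name, and all 10 were found by gene identifier among the 32976 genes counted in each library. CT26.WT is a BALB/c colorectal carcinoma line, here grown under the skin of wildtype mice, and GSW11 is a peptide of this tumor that H2-Dd presents to CD8+ T cells. Every mouse behind the libraries received the anti-PD-1 antibody RMP1-14 on days 3, 6 and 9, and tumors were taken on days 10 to 12, so no library came from an untreated tumor. CD8+CD44+ tumor-infiltrating lymphocytes were sorted by how brightly they bound GSW11 tetramer. TetHighProg holds the brightly stained, high avidity cells of progressing tumors, TetLowProg the dimly stained, low avidity cells of progressing tumors, and TetLowReg the low avidity cells of regressing tumors. No high avidity group from regressing tumors is part of this comparison. Each group has 3 libraries. The replicate numbers are 1, 2 and 5 in TetHighProg, and TetLowReg holds replicates 6, 7 and 8. Those of TetLowProg are 9, 10 and 12. The cells came from 3 regressing and 3 progressing tumors, which by this description makes the TetHighProg and TetLowProg libraries high and low sorts of the same tumors. The labels tie no library to a tumor, and every test treated the libraries as independent. The p-values therefore measure only the spread between these libraries.

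These factors act in layers. T-bet (gene Tbx21) and eomesodermin (Eomes) are related T-box activators of effector genes such as granzyme B, perforin and interferon gamma, and ZEB2 and Blimp-1 (Prdm1) are repressors that act with or after T-bet in terminal effector cells. Bcl-6 opposes Blimp-1 and is tied to memory and follicular fates, Id2 blocks the E proteins that hold cells in an early state, Runx3 and Runx1 bind DNA with the partner CBFbeta, BATF pairs with Jun and IRF4 after T cell receptor signaling, and Ikaros (Ikzf1) sets chromatin in all lymphocytes.

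The libraries differed widely in the number of genes they caught. Between 16405306 and 36429515 reads per library fell on genes, and between 599 and 8071 genes had 10 counts or more. Under 2000 such genes were caught in each of 4 libraries, which were TetHighProg 1 and 2, TetLowReg 6 and TetLowProg 10. Of 16 T cell markers, 6 were found in each of these 4 libraries and 13 to 16 in the other 5. Of the genes behind the sort, Cd8a was at 0 counts in TetHighProg 1 and 2 and TetLowProg 10 and at 123 to 47022 in the other 6, while Cd8b1, which encodes the other CD8 chain, was at 79539, 78155 and 75010 in those 3. Cd8b1 was at 8 counts in TetLowReg 6, where Cd8a was highest, so each library held at least 1 of the 2 chains. Cd44 was at 0 in all 4 libraries of few genes. Of 11 housekeeping genes, 2 to 6 were found in the 4 libraries and 9 to 11 in the others. Of 8 B cell markers, 7 or 8 were found in TetLowReg replicates 7 and 8 and TetLowProg replicate 12, at 0.103%, 0.105% and 0.197% of counts, and none elsewhere, where their summed counts were 1 to 8. Of 12 macrophage and dendritic cell markers, 8 were found in TetLowReg replicate 7, at 0.87% of counts, and 0 to 4 in each other library. In TetHighProg 1 their share was 0.154%. Of 6 CD4 T cell and Treg markers, 4 were found in TetLowReg 7, 3 in TetLowReg 8 and 0 to 2 elsewhere. Of 5 NK cell markers, 2 were found in TetLowReg 8 and TetLowProg 9 and 0 or 1 elsewhere. Of 9 tumor and stroma markers, 0 to 4 were found, with the highest share, 0.0372%, in TetHighProg 1. The part of such cells in the counts of the factors was not tested.

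A gene was called found in a library at 10 counts or more. By that measure 1, 0 and 3 of the 10 factors were found in TetHighProg, 2, 6 and 4 in TetLowReg, and 8, 0 and 3 in TetLowProg. The means were 1.33 ± 1.53 (SD, n = 3), 4 ± 2 and 3.67 ± 4.04, so the libraries of each group spread as widely as the groups did. Across the 9 libraries the number of factors found went with the number of genes found (Pearson r = 0.886, Spearman rho = 0.933, n = 9), a description of libraries that differ in how many genes were caught. TetLowProg replicate 9 held the most factors and the most genes. In the 5 libraries with more genes the counts of factors were 3 in TetHighProg, 6 and 4 in TetLowReg, and 8 and 3 in TetLowProg.

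**Figure D1:**
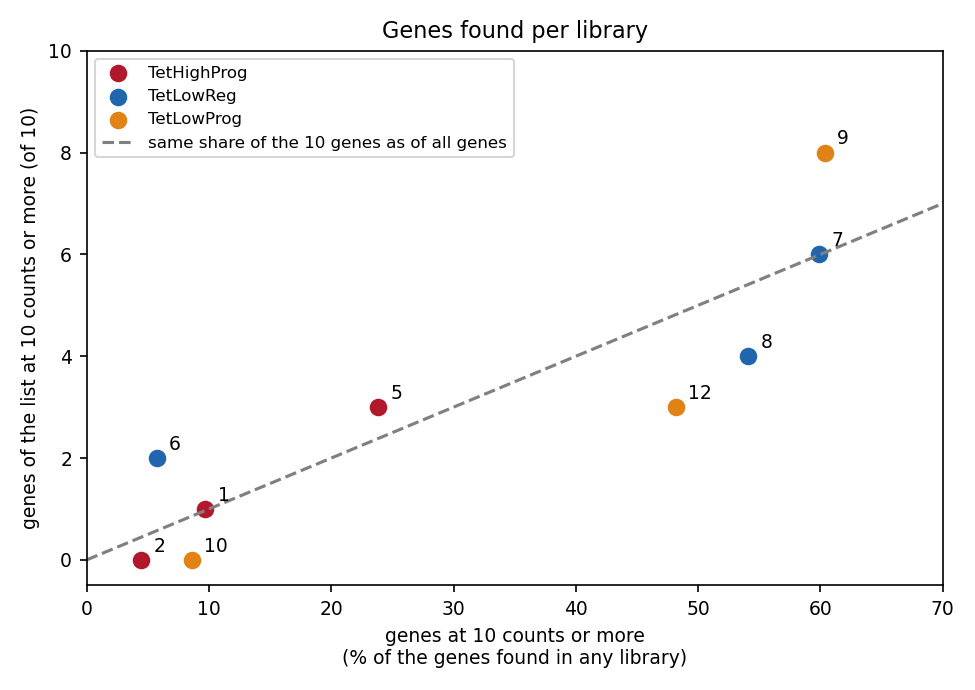
Each point is a library, colored by group and marked with its replicate number. The x axis gives the genes at 10 counts or more as a percentage of the 13373 genes found in any library, the y axis the number of the 10 factors at 10 counts or more, and the dashed line equal shares of both. TetLowProg 9 lies farthest above the line with 8 factors, and TetHighProg 2 and TetLowProg 10 had none.

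Most of these genes were read strongly in a few libraries and not at all in their neighbours from the same group. Ikzf1 was an exception in TetLowReg, with 1085 to 2110 counts in all 3 libraries, against 0 in all 3 TetHighProg libraries. In TetLowProg it too was uneven, with 22919, 0 and 2961 counts. Levels are given as CPM, a gene's count scaled to the total of gene counts in its library. The share of a gene's summed CPM that came from its top library ran from 49.7% for Runx3 to 100% for Tbx21, with a median of 82.5%. That median was 56.9% over the 5813 genes that passed the filter on low counts and 83.4% over all genes found in at least 1 library. Tbx21 and Eomes were found in a single library, Prdm1, Zeb2 and Batf in 2, Id2, Runx1 and Bcl6 in 3, and Runx3 and Ikzf1 in 5. TetLowProg replicate 9 was the top library of 7 of the 10. Because each sample is an amplified bulk sort, fewer cells with a transcript and less transcript per cell cannot be told apart. Copies made by PCR carry no molecular identifier, so every interval and limit given here covers counting error only.

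**Figure D2:**
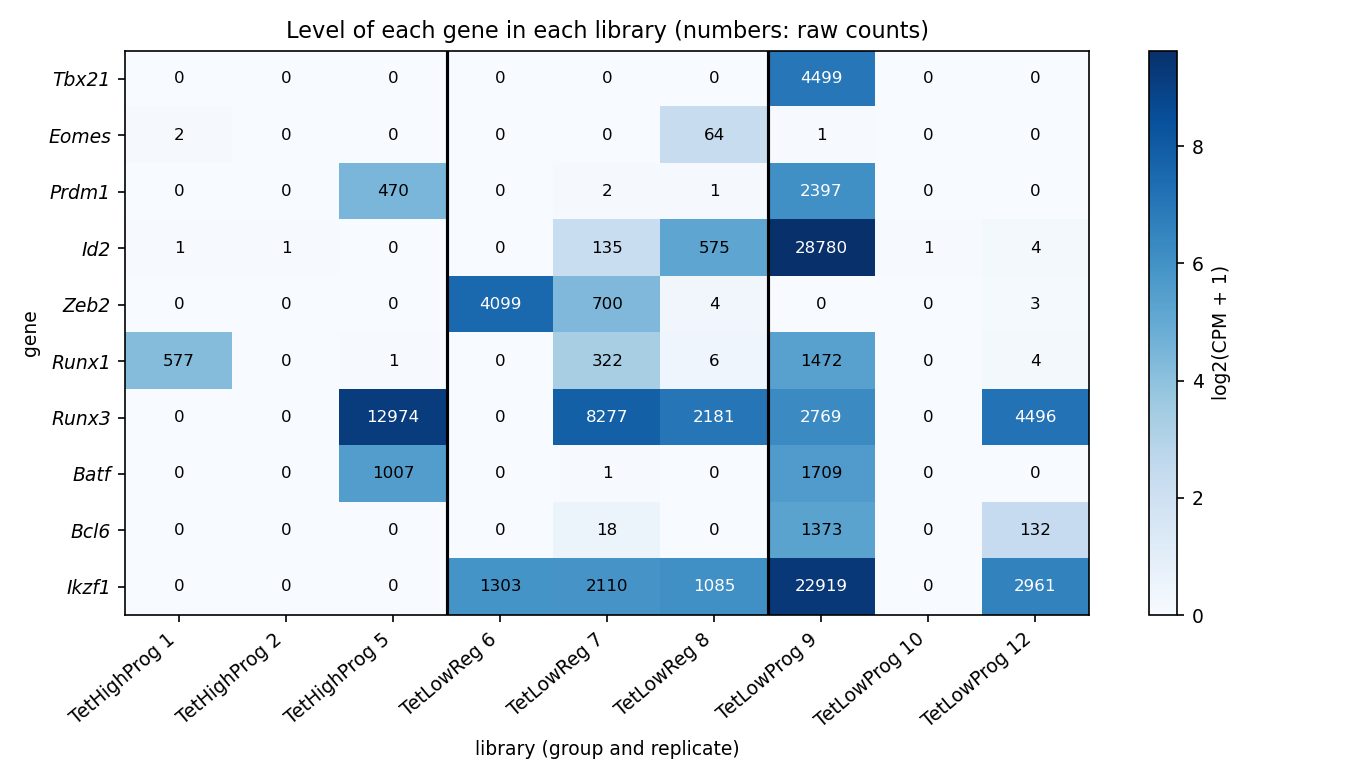
Rows are the 10 factors and columns the 9 libraries, with black lines between the groups. Color gives log2(CPM + 1) and the number in each cell the raw count. Ikzf1 is filled in all 3 TetLowReg libraries and in no TetHighProg library, and the TetLowProg 9 column is filled for 8 of 10 factors.

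The proximal promoters of 4 of the factors are shown, because Tbx21, Prdm1 and Batf were found in the same TetLowProg library and Eomes, the relative of Tbx21, was not. Each line gives the bases before the transcription start in RefSeq, 5′ to 3′ on the gene's strand, cut where an annotated exon of the gene begins, from the mouse reference sequence and not from BALB/c. Capitals mark matches on either strand to the letters TGTGGT (RUNX), GGTGTGA (T-box), TGANTCA (AP-1, the site of BATF and Jun), TGGGAA (Ikaros) or CAGGTG (an E-box of ZEB proteins). On build GRCm39 the windows are chr11:97006159-97006407 on the minus strand, chr9:118307007-118307256 on the plus strand, chr10:44334781-44334994 on the minus strand and chr12:85733244-85733422 on the plus strand.
Tbx21: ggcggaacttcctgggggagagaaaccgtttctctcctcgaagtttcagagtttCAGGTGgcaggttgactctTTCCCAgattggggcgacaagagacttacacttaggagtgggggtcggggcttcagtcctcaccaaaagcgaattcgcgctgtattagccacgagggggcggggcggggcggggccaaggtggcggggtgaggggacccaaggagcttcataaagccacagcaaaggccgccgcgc
Eomes: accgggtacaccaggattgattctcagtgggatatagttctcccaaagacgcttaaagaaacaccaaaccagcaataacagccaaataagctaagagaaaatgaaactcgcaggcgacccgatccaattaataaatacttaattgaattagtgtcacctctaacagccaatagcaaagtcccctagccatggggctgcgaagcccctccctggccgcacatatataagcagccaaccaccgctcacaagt
Prdm1: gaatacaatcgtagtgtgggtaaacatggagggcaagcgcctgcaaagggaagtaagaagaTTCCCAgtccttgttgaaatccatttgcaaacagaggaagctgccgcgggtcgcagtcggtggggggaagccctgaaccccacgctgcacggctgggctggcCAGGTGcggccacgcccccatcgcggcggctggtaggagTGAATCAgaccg
Batf: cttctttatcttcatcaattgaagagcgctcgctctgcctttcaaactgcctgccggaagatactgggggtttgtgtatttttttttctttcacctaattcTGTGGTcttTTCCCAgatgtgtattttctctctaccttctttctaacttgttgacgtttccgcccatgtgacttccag
In the full windows of 250 bases, Tbx21 held 1 Ikaros and 1 E-box match, Prdm1 held 1 AP-1, 1 Ikaros and 1 E-box match, and Batf held 1 Ikaros and 2 RUNX matches, 1 of them in the part cut off. Eomes held none. Over the 10 factors, Ikaros letters occurred in 3 windows, E-box letters in 3, AP-1 letters in 1, RUNX letters in 1 and T-box letters in none. Among 32851 mouse promoter windows of the same length the shares were 21.6%, 17.2%, 6.75%, 14.1% and 3.33%, and a match of letters is not evidence that a factor binds there.

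The paired T-box genes were the least often read. Gene positions here and below are on GRCm39. Tbx21 (ENSMUSG00000001444, chr11:96988897-97006158, minus strand) had 4499 counts (123.8 CPM) in TetLowProg replicate 9 and 0 counts in each of the other 8 libraries. Eomes (ENSMUSG00000032446, chr9:118307280-118315200, plus strand) had 64 counts (3.90 CPM) in TetLowReg replicate 8, 2 in TetHighProg replicate 1, 1 in TetLowProg replicate 9 and 0 in the other 6. The groups therefore overlapped at 0 for Tbx21 in every comparison, and its pooled level in TetLowProg was at least 1313-fold higher than in TetHighProg through that library alone. Per kilobase of transcript, Tbx21 made up 99.985% of the pair in TetLowProg replicate 9 (4499 against 1 count), and 0% in TetLowReg replicate 8 (0 against 64 counts, raw share up to 5.60% by the 95% Clopper-Pearson interval). No library held both genes at 10 counts. Both genes fell below the filter on low counts. With no filter, edgeR gave Tbx21 a log2 fold change of 12.20 for TetLowProg over TetHighProg (SE 6.72, adjusted p = 0.445) and Eomes one of -7.05 for TetLowProg over TetLowReg (SE 5.41, adjusted p = 0.529). The pattern of Tbx21, found in TetLowProg replicate 9 alone, was that of 1325 genes, itself included.

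Effector genes known as targets of T-bet or Eomes were read beside them, 13 in all. Of these, 9 were found in TetLowProg replicate 9, 7 in replicate 12 of that group, 9 in TetLowReg replicate 7, 4 in TetLowReg replicate 8, 1 in TetHighProg replicate 5, and none in the 4 libraries with few genes. Gzmb, which encodes granzyme B, had 0, 857 and 2898 counts in TetLowReg and 3063, 0 and 1129 in TetLowProg, with 0 in the 3 TetHighProg libraries. Ifng had 2349 counts in TetLowReg replicate 7 and 11244 in TetLowProg replicate 9, and Prf1, which encodes perforin, had 2738 in TetLowProg replicate 9 and 1392 in replicate 12. Cxcr3, a chemokine receptor gene, had another pattern, with 9281 counts in TetHighProg replicate 5, 4088 in TetLowProg replicate 9 and 0 in the other 7 libraries. TetLowReg replicates 7 and 8 and TetLowProg replicate 12 thus held 4 to 9 of the targets with 0 counts of Tbx21 and at most 64 of Eomes. Klrg1, a surface marker of terminal effector cells, had 0 counts in all 9 libraries. Of the 6 targets tested, edgeR called none in any comparison. At an unadjusted p under 0.05, 2 were higher in TetLowReg than in TetHighProg, against 19% of all tested genes, and 3 in TetLowProg than in TetHighProg, against 24.8% of all tested genes. None passed in TetLowProg against TetLowReg.

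Zeb2 (ENSMUSG00000026872, chr2:44873644-45007464, minus strand) was read mainly in TetLowReg. In TetLowReg 6, 7 and 8 it had 4099, 700 and 4 counts (186.0, 19.2 and 0.244 CPM), 0 in each TetHighProg library, and 0, 0 and 3 in TetLowProg. All 3 TetLowReg libraries lay above all TetHighProg and all TetLowProg libraries, although the margin rested on 4 counts against 3 in the second comparison. Pooled over the group, TetLowReg was at least 1741-fold higher than TetHighProg, where no count was seen, and the ratio of TetLowReg to TetLowProg was 1988 (95% counting interval, 680 to 9644). Without TetLowReg replicate 6 these values were 362 and 413. Zeb2 fell below the filter on low counts, and with no filter its edgeR log2 fold change between TetLowReg and TetHighProg was 14.24 (SE 6.76, unadjusted p = 0.0350, adjusted p = 0.386). Only 2 genes of 13373, Zeb2 included, were found in exactly TetLowReg replicates 6 and 7. Zeb2 is also expressed in macrophages. The macrophage markers summed to 5 counts in TetLowReg replicate 6, where Zeb2 was highest, and to 316930 in replicate 7. TetLowReg replicate 6 caught 766 genes, so few marker counts there do not show which cells were present. A macrophage part in the Zeb2 counts was not tested in either library.

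The related repressor Zeb1, linked to memory cells, was read in libraries with little or no Zeb2, and beside it in TetLowReg replicate 7. Zeb1 had 0, 11441 and 10441 counts in TetLowReg 6, 7 and 8, 1365, 0 and 12576 in TetLowProg, and 0, 0 and 4 in TetHighProg. Per kilobase, Zeb2 was 100% of the pair in TetLowReg replicate 6 and 5.56% in replicate 7. It was 0.0368% in TetLowReg replicate 8, 0% in TetLowProg replicate 9 and 0.0229% in TetLowProg replicate 12.

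Prdm1 and Batf had the same pattern over the libraries. Prdm1 (ENSMUSG00000038151, chr10:44313171-44404497, minus strand) had 470 counts (20.7 CPM) in TetHighProg replicate 5 and 2397 (66.0 CPM) in TetLowProg replicate 9, with 0 to 2 in each other library. Batf (ENSMUSG00000034266, chr12:85733423-85755861, plus strand) had 1007 counts (44.4 CPM) in TetHighProg replicate 5 and 1709 (47.0 CPM) in TetLowProg replicate 9, with 0 or 1 elsewhere. Both were thus read in a single library of each progressing group and at most at 2 counts in TetLowReg, and their groups overlapped in all comparisons. They were among 82 genes of 13373 found in exactly these 2 libraries. Pooled over TetLowReg, Batf had 1 count against 1007 in TetHighProg (ratio of TetHighProg to TetLowReg 926, counting interval 166 to 36612), and Prdm1 had 3 against 470 (ratio 144, counting interval 49.0 to 701). With no filter, edgeR gave Batf a log2 fold change of -9.35 (SE 6.40, adjusted p = 0.388) and Prdm1 one of -6.78 (SE 5.82, adjusted p = 0.467) for TetLowReg against TetHighProg. These values rest on TetHighProg replicate 5, since without it both genes had 0 counts in that group.

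Bcl6 (ENSMUSG00000022508, chr16:23783802-23807602, minus strand), the antagonist of Prdm1, was read in the low avidity groups. It had 0 counts in each TetHighProg library, 0, 18 and 0 in TetLowReg, and 1373, 0 and 132 in TetLowProg (37.8, 0 and 4.19 CPM). The groups overlapped at 0, and the pooled TetLowProg level was at least 439-fold higher than in TetHighProg, or 63.2-fold without TetLowProg replicate 9. Per kilobase, Prdm1 was 54.0% of the pair in TetLowProg replicate 9 and 100% in TetHighProg replicate 5. It was 0% in TetLowProg replicate 12 and 6.95% in TetLowReg replicate 7, over 132 and 20 counts. In the libraries with more genes, 3 of 5 therefore held only 1 gene of this opposed pair at 10 counts or more, TetLowProg replicate 9 held both, and TetLowReg replicate 8 held neither. Of the 3 libraries with Bcl6, TetLowReg 7 and TetLowProg 12 also held B cell markers, whose part in these counts was not tested. TetLowProg 9, where Bcl6 was highest, held 8 counts over those markers.

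Genes that Blimp-1 or ZEB2 are known to repress in T cells were read in most of the libraries with more genes. The list has 11 genes, Bcl6 among them. Of these, 7 were found in each of TetLowReg 7 and 8, 10 in TetLowProg 9, 8 in TetLowProg 12, 5 in TetHighProg 5, and 0 to 3 in the other 4. Il7r, which encodes a receptor subunit for interleukin-7, had 24042, 0 and 22459 counts in TetHighProg, 0, 8812 and 17105 in TetLowReg, and 17206, 7 and 5246 in TetLowProg. It was thus read both in the libraries with Prdm1, TetHighProg 5 and TetLowProg 9, and in 4 without it. Ccr7, a homing receptor of naive and memory cells, had 0, 0 and 511 counts in TetHighProg, 1, 20324 and 6337 in TetLowReg, and 63999, 38413 and 46920 in TetLowProg, where all 3 libraries were above the other 6. Such a gap was seen for 6.67% of the tested genes for TetLowProg above TetHighProg and for 2.77% for TetLowProg above TetLowReg. For TetLowProg over TetHighProg its log2 fold change was 7.75 (SE 3.87, adjusted p = 0.193 by edgeR), and over TetLowReg it was 1.51 (SE 2.94, adjusted p = 0.99997 by edgeR). Of the 8 tested, edgeR called none in any comparison, and at an unadjusted p under 0.05 it placed 1 higher in TetLowReg (19% of all tested genes) and 3 higher in TetLowProg (24.8%) than in TetHighProg, Bcl6 among the latter.

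Id2 (ENSMUSG00000020644, chr12:25143798-25147282, minus strand) had the highest count of the 10 genes in a single library. It had 1, 1 and 0 counts in TetHighProg, 0, 135 and 575 in TetLowReg (0, 3.71 and 35.1 CPM), and 28780, 1 and 4 in TetLowProg (792, 0.0398 and 0.127 CPM). TetLowProg replicate 9 carried 95.3% of its summed CPM. The TetLowProg libraries did not overlap with TetHighProg, but in replicate 10 the margin was 1 count against 1. Pooled ratios over TetHighProg, with 2 counts there, were 386 for TetLowReg (counting interval 106 to 3194) and 12603 for TetLowProg (3489 to 104070). They were 94.0 without TetLowReg replicate 8 and 3.59, from 5 counts against 2, without TetLowProg replicate 9. Without TetLowProg replicate 9, the edgeR log2 fold change of TetLowProg over TetHighProg went from 12.16 to 1.52. Id3, the other E protein inhibitor, is linked to memory cells and was read in TetLowProg replicate 9 alone, at 5778 counts, where Id2 made up 72.1% of the pair per kilobase. Of the E protein genes, Tcf3 had 3371 and 125 counts in TetLowProg replicates 9 and 12 and 0 in the other 7 libraries, and Tcf12 was highest in that same TetLowProg replicate 9, at 2962 counts, with 569 in TetLowReg 7 and 827 in TetLowReg 8.

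Runx3 (ENSMUSG00000070691, chr4:134847952-134905301, plus strand), which programs cytotoxic CD8+ T cells, was found in 5 libraries, as was Ikzf1, more than any other gene of the list. It had 0, 0 and 12974 counts in TetHighProg (0, 0 and 572 CPM), 0, 8277 and 2181 in TetLowReg (0, 227 and 133 CPM), and 2769, 0 and 4496 in TetLowProg (76.2, 0 and 143 CPM). It was found in all 5 libraries with more genes and had 0 counts in the 4 with few, a pattern it shared with 643 genes, itself included. The mean was 191 ± 330 CPM (SD, n = 3) for TetHighProg, against 120 ± 114 for TetLowReg and 73.0 ± 71.4 for TetLowProg. These differences were far inside the spread of the libraries, with edgeR log2 fold changes of 0.21 (SE 3.86, adjusted p = 0.991) for TetLowReg and -1.36 (SE 3.93, adjusted p = 0.916) for TetLowProg over TetHighProg. Their direction turned with the scale: on that of mean log2(CPM + 1), both low avidity groups were above TetHighProg, by 1.91 and 1.43, while the mean CPM was highest in TetHighProg. TetHighProg replicate 5 had the highest level of all 9 libraries. Without TetHighProg replicate 5 the fitted changes were 15.33 and 13.74.

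Runx1 (ENSMUSG00000022952, chr16:92398354-92623037, minus strand) had 577, 0 and 1 counts in TetHighProg (17.3, 0 and 0.0441 CPM), 0, 322 and 6 in TetLowReg (0, 8.84 and 0.366 CPM), and 1472, 0 and 4 in TetLowProg (40.5, 0 and 0.127 CPM). It was found in a single library of each group, and the edgeR log2 fold changes over TetHighProg were -0.18 for TetLowReg and 0.52 for TetLowProg, against standard errors of 3.90 and 3.91. Per kilobase, Runx3 made up 97.6% of the pair in TetLowReg 7, 99.8% in TetLowReg 8, 75.1% in TetLowProg 9, 99.9% in TetLowProg 12 and 99.995% in TetHighProg 5. In TetHighProg replicate 1 it made up 0%, with 577 counts of Runx1 and 0 of Runx3 (raw share up to 0.637%). Cbfb, the shared partner, had 0, 0 and 7430 counts in TetHighProg, 1, 2825 and 4308 in TetLowReg, and 2458, 0 and 1029 in TetLowProg. The 4 libraries at 0 or 1 were the same 4 that lacked Runx3, and these are the 4 libraries that caught few genes.

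The partners of BATF differed from each other in the libraries that held them. Of the 2 libraries that held Batf, TetHighProg 5 had 544 counts of Junb and 2 of Jun, and TetLowProg 9 had 160370 and 33947. Jun was also read without Batf, at 3556 counts in TetLowReg 7 and 8309 in TetLowProg 12, where Junb had 312 and 151. Jund had 145, 0 and 29 counts in TetHighProg, 1, 1366 and 182 in TetLowReg, and 1438, 163 and 3777 in TetLowProg. Irf4 had 55 counts in TetLowProg replicate 9 and 0 or 1 in the other 8 libraries. Irf8, which can also pair with BATF, had 0, 0 and 1 counts in TetHighProg, 0, 10305 and 573 in TetLowReg, and 5239, 0 and 39336 in TetLowProg. Irf8 is also made by B cells, whose markers were found in 3 of the 4 libraries that held it at 10 counts or more, and their part in its counts was not tested. Batf3, a relative of Batf, had 0 in all 9.

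Ikzf1 (ENSMUSG00000018654, chr11:11634980-11723186, plus strand) was the factor that most clearly set TetLowReg apart from TetHighProg. It had 0 counts in each of the 3 TetHighProg libraries. It had 1303, 2110 and 1085 counts in TetLowReg, which gave 59.1, 57.9 and 66.1 CPM and a mean of 61.1 ± 4.44 (SD, n = 3). In TetLowProg it had 22919, 0 and 2961 counts, or 631, 0 and 94.0 CPM, with a mean of 242 ± 340. All TetLowReg libraries lay above all TetHighProg libraries, whereas TetLowProg overlapped with both groups through the 0 in replicate 10. With 3 counts over the group as the limit that a count of 0 allows, the pooled level was at least 1630-fold higher in TetLowReg and at least 7554-fold higher in TetLowProg than in TetHighProg. The second limit rested on TetLowProg replicate 9, without which it was 1419-fold, and the first was 961-fold without TetHighProg replicate 1, which had the most reads of its group. TetLowReg replicate 6 reached the level of its group although it had 766 genes at 10 counts or more. TetHighProg replicate 5, with 3181 such genes, had no count of Ikzf1. Only 52 of the 13373 genes, Ikzf1 included, were found in exactly these 5 libraries.

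The edgeR quasi-likelihood test, fitted over all 9 libraries, gave Ikzf1 a log2 fold change of 14.05 (SE 6.68, unadjusted p = 0.0355, adjusted p = 0.233) for TetLowReg over TetHighProg. For TetLowProg over TetHighProg the edgeR value was 15.15 (SE 6.93, unadjusted p = 0.0288, adjusted p = 0.193). Fitted values against a group at 0 depend on the prior count and set no bound. The exact permutation test on log2(CPM + 1) gave a difference of 5.95 for TetLowReg (p = 0.1, the smallest that 3 libraries against 3 can give, adjusted p = 0.787) and 5.29 for TetLowProg (p = 0.4). With the 6 low avidity libraries together against the 3 TetHighProg libraries, 5 of 6 were above 0 and the difference was 5.62 (exact p = 0.0476, adjusted p over all tested genes 0.633). Neither test passed adjustment. For the 6 low avidity libraries, TMM scaling and leaving out 1 library at a time kept the direction. Of these settings, 8 put the exact p at 0.05 or above and 2 kept it below. Both comparisons share the TetHighProg libraries, so they are not independent of each other. Between the low avidity groups, edgeR gave TetLowProg over TetLowReg a log2 fold change of 1.10 (SE 4.23, adjusted p = 1), while the difference of mean log2(CPM + 1) was -0.66.

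Ikaros is made by B cells as well as T cells, and B cell markers were found in 3 of the 5 libraries that held Ikzf1, where their part in the Ikzf1 counts was not tested. In the other 2 those markers were near 0. TetLowReg replicate 6, with Ikzf1 at 59.1 CPM, held 1 count over the 8 B cell markers, and TetLowProg replicate 9, with the highest Ikzf1 level, held 8. TetLowReg 6 caught 766 genes and 6 of 16 T cell markers, so few marker counts there do not show which cells were present. A B cell part in the Ikzf1 counts was not tested in these libraries either. Ikzf3, the relative known as Aiolos, had 273 counts in TetLowReg replicate 7 and 665 in TetLowProg replicate 9, where Ikzf1 made up 82.6% and 95.5% of the pair per kilobase. Chromatin partners of Ikaros followed no common pattern. Chd4 had 1883, 1159 and 662 counts in TetHighProg, 0, 5178 and 417 in TetLowReg and 8670, 0 and 3655 in TetLowProg. It was thus read in 3 of the 4 libraries in which Ikzf1 was not. Hdac1 had 0, 0 and 632 counts in TetHighProg, 0, 344 and 403 in TetLowReg, and 3768, 5390 and 1422 in TetLowProg. Smarca4 had 0 or 1 counts in each TetHighProg library, 1, 2840 and 6147 in TetLowReg, and 5191, 2 and 5501 in TetLowProg. Mta2 had 0 counts in each TetHighProg library, 0, 9 and 31 in TetLowReg, and 9945, 0 and 258 in TetLowProg.

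**Figure D3:**
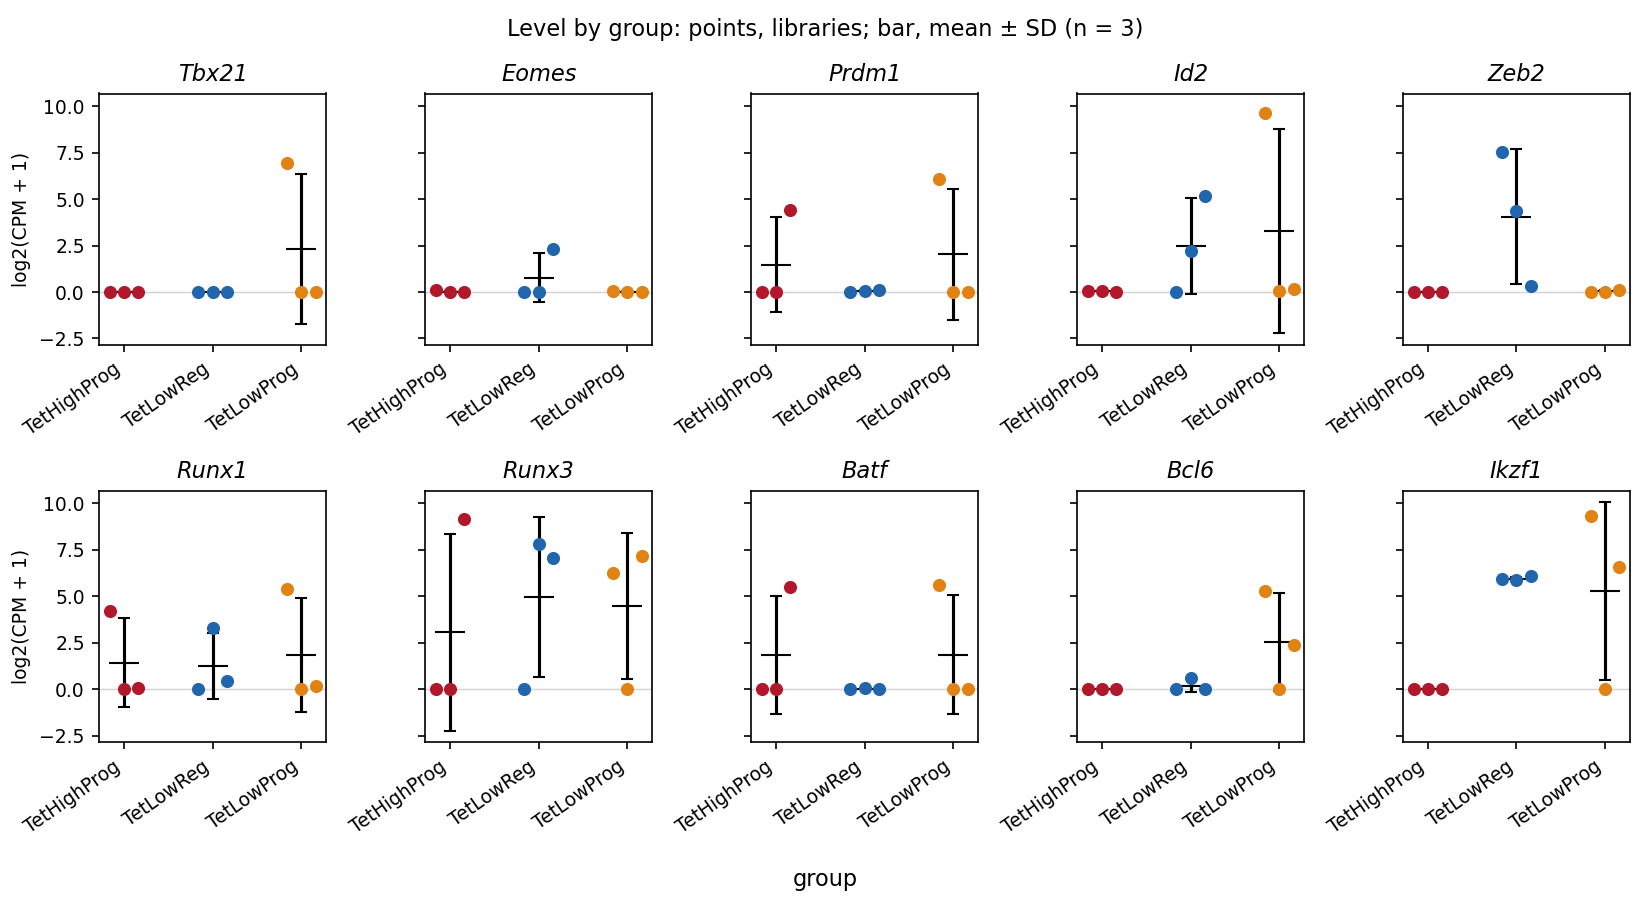
Each panel shows 1 factor, with log2(CPM + 1) on the y axis and the 3 groups on the x axis. Points are libraries, and black bars give the mean ± SD (n = 3). For Ikzf1 the TetLowReg points lie together between 5.88 and 6.07 and the TetHighProg points at 0, while for most other factors 1 or 2 points stand far above the rest of their group.

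Of the 10 factors, 5 passed the filter on low counts and could be tested with edgeR: Id2, Runx1, Runx3, Bcl6 and Ikzf1. Calls needed a log2 fold change beyond 2 in either direction with an adjusted p below 0.05. For TetLowReg over TetHighProg none of the 5 was called, as was none of the 5813 genes (0%), and at an unadjusted p under 0.05 Ikzf1 was higher, as were 19% of all genes, with 0.516% lower. For TetLowProg over TetHighProg edgeR called none (0% of genes), and at an unadjusted p under 0.05 Ikzf1 and Bcl6 (log2 fold change 11.02, SE 5.31, adjusted p = 0.193 by edgeR) were higher, as were 24.8% of genes, with 0.55% lower. For TetLowProg over TetLowReg none was called (0% of genes) and none had an unadjusted p under 0.05, against 0.43% of genes higher and 0.499% lower. For both low avidity groups over TetHighProg none was called, and the call on 1 of the 5813 genes (0.0172%) was Fem1b, named after its values were seen, which is no member of the list and was lower. In that comparison edgeR placed Ikzf1 higher at an unadjusted p of 0.0305 (adjusted p = 0.181), as were 24.4% of genes, with 1.19% lower.

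Over all tested genes the median log2 fold change was 4.82 for TetLowReg and 5.40 for TetLowProg over TetHighProg, so positive values were common. Non-overlapping groups, for TetLowReg above TetHighProg, were seen for Ikzf1 and Zeb2 among the 10 factors and for 4.8% of the tested genes, with 0.998% the other way. Zeb2 is not among the tested genes, which give every share of this kind here, and its background was not computed. Id2 was the factor with non-overlapping groups for TetLowProg above TetHighProg (6.67% of tested genes, 0.499% the other way). For TetLowProg below TetLowReg it was Zeb2 (0.654% of tested genes, 2.77% the other way). For all low avidity libraries above TetHighProg there was none (0.946% of tested genes, 0.189% the other way).

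Other tools made more calls, of the factors and of genes in general. For TetLowReg over TetHighProg, DESeq2 on the 3 groups called Ikzf1 (adjusted p = 5.54e-12), along with 28.8% of the tested genes, 28% higher and 0.74% lower. For TetLowProg over TetHighProg it called Ikzf1 and Bcl6 (adjusted p = 0.0084 for Bcl6), along with 35.4% of genes, 35.2% higher and 0.189% lower. For both low avidity groups over TetHighProg it called the same 2 factors, along with 37.3% of genes, 36.7% higher and 0.637% lower. In these fits DESeq2 gave an adjusted p for 4461 of the 5813 genes and none for Id2 and Runx1, which therefore could not be called. Limma-voom with quality weights called Ikzf1 (adjusted p = 0.00366) and Runx3 (adjusted p = 0.00946) for TetLowReg over TetHighProg, along with 41.5% of genes, 41.3% higher and 0.206% lower. It called Ikzf1, Runx3 and Bcl6 for TetLowProg over TetHighProg, along with 49.9% of genes, 49.6% higher and 0.275% lower. It called these 3 and Id2 for both low avidity groups, along with 68.2% of genes, 67.6% higher and 0.619% lower. A share of calls among the factors is thus to be read against backgrounds this large. DESeq2 fitted to 2 groups at a time tested 2 factors for TetLowReg over TetHighProg. It called Ikzf1 (adjusted p = 0.00233), along with 2.57% of 2529 genes, 2.25% higher and 0.316% lower. For TetLowProg over TetHighProg the filter kept 1 factor, Runx3, so Ikzf1 and Bcl6 could not be called. Runx3 was not called in that fit, which called 5.78% of 2805 genes, 5.7% higher and 0.0713% lower. For TetLowProg over TetLowReg no factor was called by DESeq2 on 3 groups (0.464% of genes, 0.378% higher and 0.086% lower), by DESeq2 on 2 groups (0.0546% of 5493 genes, again with no adjusted p for Id2 and Runx1) or by limma-voom (0%). With the 4 libraries of few genes left out, Ikzf1 kept its direction (log2 fold change 14.38, unadjusted p = 0.00591, adjusted p = 0.339 by edgeR), with TetHighProg then held by replicate 5 alone and assumed to vary like the other groups.

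**Figure D4:**
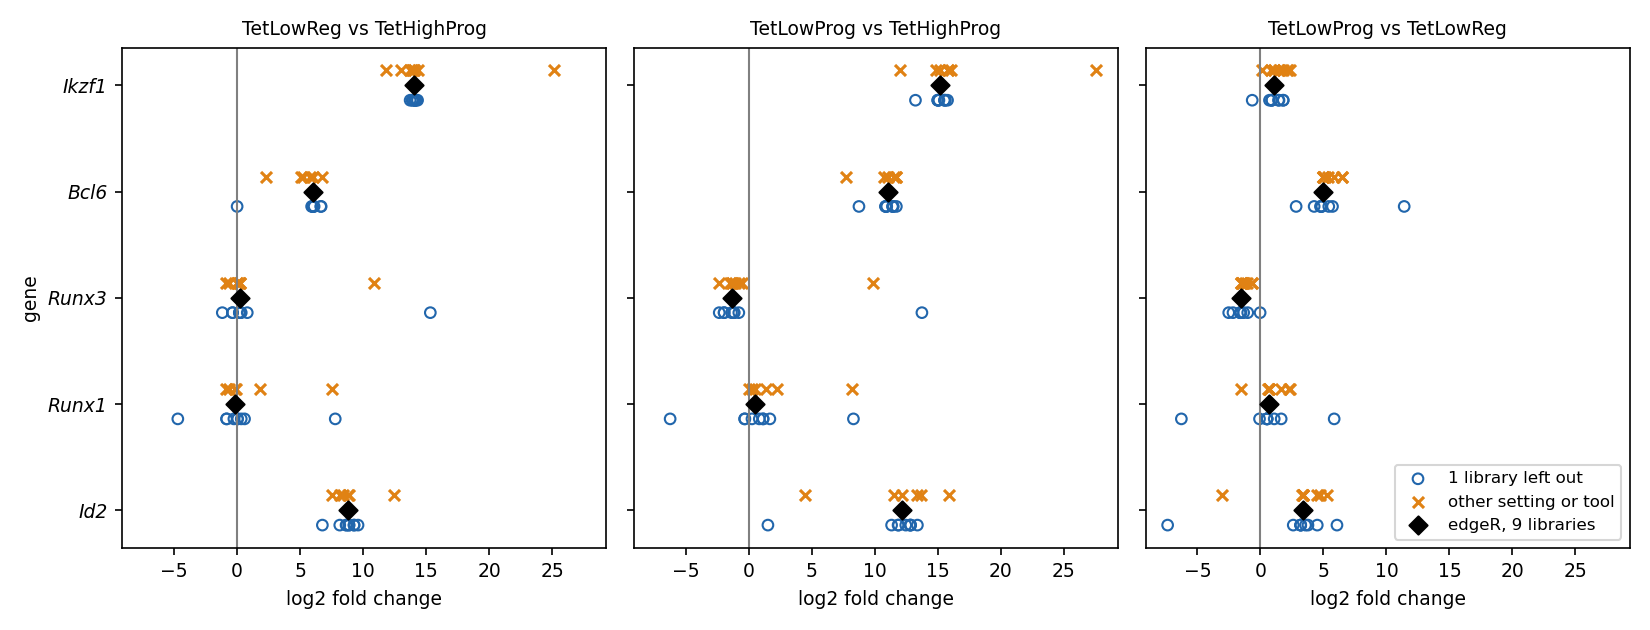
Each panel is a comparison and each row 1 of the 5 tested factors, with the log2 fold change on the x axis and 0 as a grey line. Black diamonds are the edgeR fit to 9 libraries, open circles the fits without 1 library and crosses the other settings and tools. Ikzf1 stays right of 13 over every left-out library in the comparisons with TetHighProg, while the Runx1 circles fall on both sides of 0 in all panels and the Runx3 circles in the comparisons with TetHighProg.

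Within TetLowProg replicate 9, the 1 library with 8 factors found, levels per kilobase of transcript ranked the genes. Id2 was at 322 CPM per kilobase, Ikzf1 at 106, Tbx21 at 49.7, Batf at 48.2, Runx3 at 20.8, Prdm1 at 12.6, Bcl6 at 10.7 and Runx1 at 6.91. All 10 factors together took 0.181% of its gene counts, against 0.0239% to 0.0637% in the other 4 libraries with more genes. In those 4 Runx3 led per kilobase, with 57.8% to 79.4% of the summed level of the 10. In TetLowReg replicate 6 Zeb2 took 75.7% and Ikzf1 24.3%. Runx1 took 99.0% in TetHighProg replicate 1, and in TetHighProg replicate 2 and TetLowProg replicate 10 the 10 genes together had 1 count each.

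The gene most like each factor was sought by Pearson r of log2(CPM + 1) over the 9 libraries, as a description. Ikzf1 was nearest to Mllt10 (r = 0.977), and 25 of 5808 tested genes outside the list had an r over 0.9 with it. Zeb2 was nearest to Wdr20 (r = 0.941, 2 genes over 0.9). Runx3 was nearest to Cnot8 (r = 0.998, 360 genes) and Bcl6 to Tanc1 (r = 0.9997, 367 genes). Tbx21 was nearest to Ppfibp1 (r = 0.993), Eomes to Tmem126b (0.984), Prdm1 to Elf2 (0.998), Id2 to Mbd3 (0.999), Runx1 to Commd10 (0.985) and Batf to Enpp1 (0.993). Genes at 0 in most libraries resemble each other by this measure whatever they encode.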

How the data were processed

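RNA from sorted tumor-infiltrating lymphocytes was made into 9 Smart-seq2 libraries, 3 per group. As deposited by the authors, each table holds raw read counts per Ensembl gene, after alignment with STAR 2.7.6a to build GRCm39. The study's methods name featureCounts, whereas the tables are laid out like the gene counts that STAR itself writes, and the annotation release was not given in the sources used here. The unstranded counts were used, so genes on opposite strands cannot be told apart where they overlap. Between 47.7% and 53.4% of each factor's reads fell on the first strand, and antisense genes were annotated at Zeb2, Runx1, Runx3 and Ikzf1.

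Of 32976 gene identifiers, 28645 matched the GENCODE annotation of GRCm39, and in TetLowProg replicate 9 the unmatched ones took 13.4% of the counts (0.484% to 1.30% elsewhere). Rows for unmapped, multimapped, ambiguous and unassigned reads were left out of library sizes. CPM used the total of all gene counts, with a pseudocount of 1 on the log2 scale. Levels per kilobase used the length of the canonical transcript.

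Groups were compared in a quasi-likelihood fit over the 3 groups (edgeR 4.0.16, R 4.3.3), with TMM scaling, the default filter on low counts and Benjamini-Hochberg adjustment over the 5813 genes kept. Two-sided exact permutation tests over libraries used SciPy 1.17.1. DESeq2 1.42.0 and limma 3.58.1 (voom), other filters, plain library size, fits to 2 groups and left-out libraries were the alternatives. The scripts were tested on simulated counts. In a simulation of TetLowReg against TetHighProg at the spread seen here, edgeR and limma-voom recovered none of the raised genes, and most of the DESeq2 calls were of genes that had not been raised. At a low spread, all tools recovered every raised gene with no false call. The simulated counts had the same spread for all genes and no loss of genes in particular libraries, so they differ from the data. The replicate spread was wide (common dispersion 8.12 in edgeR).

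The 10 genes, the lists of partners, targets and markers, and the alternatives were chosen with earlier results of these data known. All 10 genes are named, and for each the tested gene with the highest r. Partners and targets are named where a pair, partner or target of a factor is described. Promoter windows came from a RefSeq table of an earlier build and were placed on GRCm39 by exact match. The description in the study makes the high and low avidity cells of progressing tumors sorts of the same tumors, which it does not state outright for the libraries. The labels tie no library to a tumor, so the libraries were fitted as independent.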

Additional observations from a re-analysis of the deposited data

How the results depend on the processing

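The number of genes called depended on the tool. For TetLowReg over TetHighProg it was 0 by edgeR, 1672 by DESeq2 on the 3 groups, 2411 by limma-voom, 2 by edgeR and 65 by DESeq2 on the 2 groups, and 3 without the 4 libraries of few genes. For TetLowProg over TetHighProg it was 0, 2059, 2901, 1, 162 and 3 in the same order, and 1 with library size in place of TMM. For TetLowProg over TetLowReg DESeq2 called 27, edgeR on the 2 groups 1 and DESeq2 on the 2 groups 3. For both low avidity groups over TetHighProg the 1 call went to 0 with no filter, with the strict filter and with library size, to 2168 by DESeq2, to 3965 by limma-voom and to 7 without the 4 libraries. Leaving out 1 library at a time gave 0 to 4 calls for TetLowReg over TetHighProg (4 without TetLowProg replicate 9), 0 for TetLowProg over TetHighProg, 0 to 2 for TetLowProg over TetLowReg (1 without TetHighProg 2, 2 without TetLowProg 12) and 0 to 1 for both low avidity groups. The causes were not tested.

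Of 320 alternative values of the log2 fold changes of the 5 tested factors, 274 kept direction and side of the threshold, 33 reversed and 13 kept direction and passed it where the edgeR fit had not. Of the reversed values, 2 also passed it, both Runx3 by limma-voom. The setting with no threshold on the fold change reused the edgeR fit, so its values, counted among the 274, could not differ. Runx3 for TetLowReg over TetHighProg was -0.046 by DESeq2 on the 2 groups, -0.65 with library size, -0.010 with no filter and -0.85 without the 4 libraries, and Runx1 was 1.84 by limma-voom and 7.56 without the 4 libraries. With no filter Runx1 was -0.012 for TetLowProg and -0.32 for both low avidity groups over TetHighProg. By limma-voom Runx3 was 9.85 and 10.37 in those comparisons, and for TetLowProg over TetLowReg Id2 was -3.08 and Runx1 -1.57. Without 1 library, Runx1 ran from -4.71 to 7.79 for TetLowReg, from -6.24 to 8.30 for TetLowProg and from -3.10 to 8.04 for both groups over TetHighProg, and from -6.28 to 5.85 for TetLowProg over TetLowReg. Runx3 ran from -1.18 to 15.33, from -2.35 to 13.74 and from -1.19 to 14.53 over TetHighProg. For TetLowProg over TetLowReg, Id2 ran from -7.37 to 6.07, Ikzf1 from -0.65 to 1.81 and its difference of mean log2(CPM + 1) from -2.67 to 1.98, the lowest values without TetLowProg 9 for Id2 and Ikzf1. Over TetHighProg, Ikzf1 stayed between 13.73 and 14.32 for TetLowReg, with edgeR unadjusted p from 0.0241 to 0.0780 and adjusted p from 0.174 to 0.477, and between 13.23 and 15.77 for TetLowProg.

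The number of factors with the higher mean log2(CPM + 1) in the first group was 6 for TetLowReg and 9 for TetLowProg over TetHighProg, 6 for TetLowProg over TetLowReg and 8 for both low avidity groups. It ran from 5 to 8, from 5 to 9 (5 without TetLowProg 9 or TetHighProg 2), from 1 to 8 (1 without TetLowProg 9) and from 6 to 9 without 1 library. The share over all genes was not computed on this scale. By edgeR the log2 fold change was positive for 4225, 4271, 3226 and 4210 of 5813 tested genes in the same order, so higher values were common among genes in general. The mean number of factors found ran from 0.5 to 2 in TetHighProg, from 3 to 5 in TetLowReg and from 1.5 to 5.5 in TetLowProg. Minimum counts of 1 or 100 and thinning to 16405306 counts moved these means by less than their SD. No paired analysis was possible because the groups share no replicate number. The 4 libraries with few genes had 22040786 to 33409472 counts, and a count of 0 there says only that no read was caught.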

Other observations

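Other transcription factors of CD8+ T cell differentiation were read in all 9 libraries. Of 26 such genes, 6, 4 and 17 were found at 10 counts or more in TetHighProg, 2, 24 and 22 in TetLowReg, and 23, 8 and 23 in TetLowProg. Satb1, a chromatin organizer of T cells, was the gene of this list read in all 9 libraries, between 3997 and 60552 counts. Tox, which is tied to exhaustion, had 13349, 2704 and 9663 counts in TetHighProg, 0, 54 and 594 in TetLowReg, and 1491, 47984 and 4129 in TetLowProg. All 3 TetLowReg libraries lay below the other 6 for Tox, with 36.2 CPM in TetLowReg 8 against 41.0 in TetLowProg 9. Among tested genes, 0.998% lay wholly lower in TetLowReg than in TetHighProg and 2.77% wholly higher in TetLowProg than in TetLowReg. The edgeR log2 fold change of Tox was -4.40 for TetLowReg over TetHighProg (SE 3.73, adjusted p = 0.464) and 5.48 for TetLowProg over TetLowReg (SE 3.93, adjusted p = 0.99997). Tcf7, which encodes TCF-1 of stem-like and memory cells, had 2466, 1 and 38620 counts in TetHighProg, 0, 255 and 8892 in TetLowReg, and 18867, 27422 and 29432 in TetLowProg. Tox and Tcf7 were both read in TetLowProg replicate 10, in which no factor of the 10 was found. Stat4, which signals from interleukin-12, had 0 counts in each TetHighProg library, 0, 427 and 1622 in TetLowReg, and 8073, 0 and 3371 in TetLowProg. Zfp683, which encodes the resident memory factor Hobit, had 0 counts throughout.

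Of the 23 of these genes tested, edgeR called none in any comparison. At an unadjusted p under 0.05, 2 were higher in TetLowReg than in TetHighProg (Maf and Stat4), against 19% of all tested genes, and 2 in TetLowProg than in TetHighProg (Bach2 and Stat4), against 24.8%. None passed between TetLowProg and TetLowReg. The median log2 fold change was 0.85 for TetLowReg and 2.80 for TetLowProg over TetHighProg, against 4.82 and 5.40 over all tested genes.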
